A study of Mus musculus with 7 samples.

Results

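Potassium channel subunit genes were followed in the ventricles of banded and sham-operated mice. They were taken as the rows of the deposited expression table whose symbol starts with Kcn and a further lower-case letter, which gave 95 of 23847 rows, each symbol once. They comprised 40 voltage-gated, 15 inward rectifier, 14 two-pore and 8 calcium- or sodium-activated pore genes, 17 auxiliary genes and 1 noncoding RNA, Kcnq1ot1. Of the 95 genes, 24 reached an FPKM (fragments per kilobase of transcript, scaled to the library's fragments) of at least 1 in at least 3 of 7 libraries and were tested, and 71 lay below that filter.

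The TAB group (3 libraries) consisted of male mice in which a suture tied against a needle constricted the aorta, an operation called trans-aortic banding that raises the load on the left ventricle. The Sham group (4 libraries) consisted of male mice whose aorta was exposed and the suture left untied. Per the labels, surgery took place at 8 weeks of age and the age of the samples is 12 weeks; neither strain nor genotype is given. Each library was made from polyA RNA of a whole ventricular lysate, and nothing in the labels states that the libraries are different animals. The p-values therefore reflect only how these 7 libraries vary, which may be technical.

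A potassium channel lets potassium leave the cardiomyocyte and so ends the action potential and sets the resting potential. Voltage-gated channels open on depolarization, inward rectifiers hold the resting potential or respond to G proteins or to ATP, and two-pore channels carry a background leak. Auxiliary subunits have no pore and change the gating, trafficking or abundance of the channels they join. In the mouse ventricle, repolarization is known to rest chiefly on a fast transient outward current and on delayed rectifiers, and less on the ERG and KCNQ1 channels that dominate in larger mammals.

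FPKM sums lay between 510016 and 535455 in the 7 libraries, and the whole-fragment steps of low values put the depth at about 11.5 to 12.1 M fragments in TAB and 11.0 to 12.2 M in Sham (M, 1000000). At that depth the tested gene with the fewest fragments, Kcnip3, rested on about 28 to 40 fragments a library, and Kcnk3 on about 2605 to 3472. Over all tested genes 7.05% were lower in TAB and 13.3% higher. Summed FPKM of 9 cardiomyocyte markers was 49500 to 52200 in TAB and 53300 to 55800 in Sham. Of these 9 markers 6 were lower, 0 higher and none at 0. These markers fit heart muscle but do not tell ventricle from atrium. Fibroblast markers (7 of 8 higher) summed to 529 to 710 FPKM in TAB and 397 to 451 in Sham. Of the atrial markers 5 of 6 were tested, and Nppa, also a gene of the loaded ventricle, was higher and the other 4 were not called. Atrial levels varied widely within both groups, Myl7 from 14.9 to 164 FPKM in TAB and from 17.6 to 146 in Sham. Macrophage markers (2 of 7 tested higher) summed to 126 to 152 in TAB and 114 to 129 in Sham, and endothelial markers (3 of 8 higher) to 260 to 289 in TAB and 221 to 250 in Sham. Schwann cell and neuron markers summed to 4.96 to 5.27 FPKM in TAB and 4.76 to 5.22 in Sham, with Th and Snap25 at 0 in every library, and none of the 7 lymphocyte markers passed the filter. Of 7 skeletal muscle markers 5 were below the filter and neither Ckm nor Tnni2 was called. Each of the 7 was highest in Sham 4. There Tnnt3 had 3.06 FPKM and Mylpf 2.96, against 0.098 to 0.886 and 0.444 to 1.3 in the other libraries. The part of these shifts in the results below was not tested, and in bulk RNA fewer cells of a type and less RNA per cell cannot be told apart.

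Of the 24 tested genes 10 were lower in TAB, 1 was higher and 13 were not called (limma, Benjamini-Hochberg adjusted p under 0.05 over all 11601 tested rows). That is 45.8% of the tested members called, against 20.3% of all tested genes, and 41.7% called lower, against 7.05%; 13.3% of all tested genes were called higher. The genes that fell were Kcnd2, Kcnd3, Kcnv2 and Kcnh2 among the voltage-gated, Kcnj2, Kcnj12, Kcnj3 and Kcnj5 among the inward rectifiers, the two-pore gene Kcnk3 and the auxiliary gene Kcnip2, and the gene that rose was the inward rectifier Kcnj8. TAB and Sham libraries did not overlap in 14 of the 24, or 58.3%, against 31.1% of all tested genes. Of these 14 genes, TAB lay below Sham in 12 and above it in 2. TAB thus lay below Sham without overlap in 12 of the 24 tested members, against 11.2% of all tested genes. The median difference of the 24 was -0.15 on the scale of log2(FPKM + 1), TAB minus Sham, against 0.05 for all tested genes. No member passed the filter through 1 group alone, and 21 of the 24 reached 1 FPKM in every library. These counts describe genes above a filter on level and carry no test of the set.

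**Figure D1:**
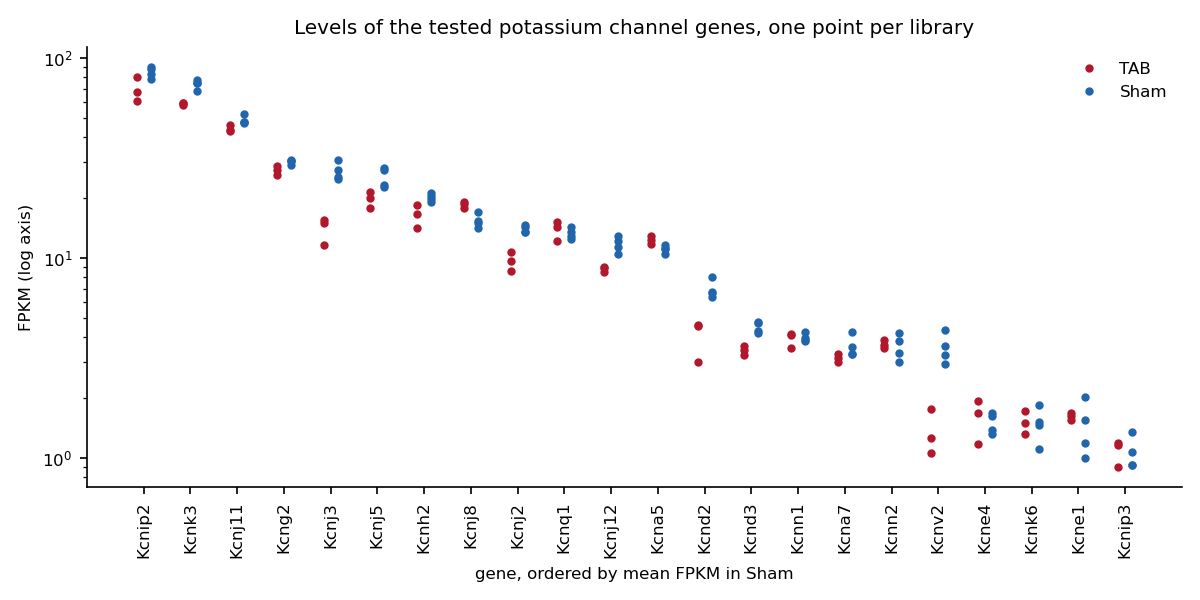
FPKM of 22 of the 24 tested potassium channel genes (vertical log axis), ordered by their mean in Sham, with 1 point for each of the 3 TAB (left) and 4 Sham (right) libraries. Levels ran from about 1 FPKM for Kcnip3 to between 60.8 and 89.9 FPKM for Kcnip2.

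Levels differed widely between the tested genes, and FPKM is a value per length of transcript. Kcnip2, the subunit that brings Kv4 channels to the surface, was the most abundant, at 69.4 ± 9.85 FPKM in TAB (SD, n = 3) and 84.9 ± 5.15 in Sham (SD, n = 4). Kcnk3, a background leak channel sensitive to acid, and Kcnj11, the pore of the ATP-sensitive channel of cardiomyocytes, followed at 59.1 ± 0.821 and 44.1 ± 1.69 in TAB and 73.8 ± 3.86 and 48.9 ± 2.53 in Sham. The order of the 3 was the same in both groups. Kcnj3 ranked 5 in Sham and 8 in TAB, below Kcnj5, Kcnh2 and Kcnj8 there. Kcnv2 was at rank 19 of the 95 in Sham and rank 23 in TAB.

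RefSeq promoter windows of 300 bases (250 before and 50 after the annotated start, build GRCm38.p6, gene strand, 5′ to 3′) were found by symbol for 14 of the 24 tested genes, 8 of them among the 10 that fell. The windows of 2 genes that fell and start exactly where the deposited gene starts, Kcnip2 and Kcnj2, are shown with that of Kcnj3, the inward rectifier that fell most, and that of Kcnj8, the gene that rose. Capitals mark CACCC on either strand (GGGTG on the other), the box that Krüppel-like factors bind.
Kcnip2, chr19:45816014-45816313, minus strand: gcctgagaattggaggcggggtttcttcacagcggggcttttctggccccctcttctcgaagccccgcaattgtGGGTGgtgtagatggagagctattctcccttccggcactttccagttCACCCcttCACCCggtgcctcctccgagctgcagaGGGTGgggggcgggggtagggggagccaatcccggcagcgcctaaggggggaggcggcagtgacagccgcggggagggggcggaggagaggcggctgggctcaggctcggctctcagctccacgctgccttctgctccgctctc
Kcnj2, chr11:111065914-111066213, plus strand: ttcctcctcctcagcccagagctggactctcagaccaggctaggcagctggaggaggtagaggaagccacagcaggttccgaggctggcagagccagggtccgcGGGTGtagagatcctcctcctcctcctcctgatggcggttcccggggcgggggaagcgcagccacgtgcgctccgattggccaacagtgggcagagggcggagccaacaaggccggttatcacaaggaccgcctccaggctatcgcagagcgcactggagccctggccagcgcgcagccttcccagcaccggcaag
Kcnj3, chr2:55435720-55436019, plus strand: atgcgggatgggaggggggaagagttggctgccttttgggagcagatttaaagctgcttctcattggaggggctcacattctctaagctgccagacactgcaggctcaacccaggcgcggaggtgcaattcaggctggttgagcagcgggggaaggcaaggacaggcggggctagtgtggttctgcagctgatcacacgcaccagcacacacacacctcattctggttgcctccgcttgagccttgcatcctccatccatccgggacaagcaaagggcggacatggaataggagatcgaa
Kcnj8, chr6:142571565-142571864, minus strand: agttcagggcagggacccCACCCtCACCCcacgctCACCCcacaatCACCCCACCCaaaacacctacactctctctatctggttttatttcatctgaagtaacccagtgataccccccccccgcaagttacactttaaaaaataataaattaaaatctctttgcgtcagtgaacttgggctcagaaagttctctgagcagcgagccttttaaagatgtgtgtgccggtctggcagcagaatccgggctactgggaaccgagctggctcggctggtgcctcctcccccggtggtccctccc

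The Kcnip2 window held 4 matches of CACCC, that of Kcnj2 1, that of Kcnj8 5 and that of Kcnj3 none. At least 1 match stood in 13 of the 14 windows of tested members, 7 of 8 among the genes that fell, and in 63.1% of the windows of 8578 tested genes. The NFAT core GGAAA was found in 8 of 14 members (3 of 8 that fell) and 59.0% of tested genes. The GATA motif AGATAA was found in 0 of 14 and 6.23%, and the Iroquois motif ACANNTGT in 1 of 14 and 3.47%. Both strands were searched, and the 4 motifs do not contain one another but may overlap at their ends. The annotated start lay 38 bases from the deposited gene's start for Kcne4, 107 for Kcnj5, 258 for Kcnj8 and 440 for Kcnd3. It lay 724 bases away for Kcnip3, 763 for Kcnd2, 1186 for Kcnj3, 6250 for Kcnn1, 22013 for Kcnh2 and 43240 for Kcnj12. These windows may therefore not be the start used in the ventricle, and a match is no more than a run of letters.

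The pore genes of the fast transient outward current both fell. Kcnd2 (chr6:21216109-21729805 on mm10), which encodes the Kv4 subunit that carries most of this current in mouse, had 4.58, 4.60 and 3.00 FPKM in TAB 1 to 3, against 6.70, 6.40, 6.74 and 8.01 FPKM in Sham 1 to 4. TAB 3 was the lowest library and Sham 4 the highest, and the groups did not overlap. The mean was 0.583 times that of Sham (log2 difference -0.67 ± 0.12 SE, limma adjusted p = 0.00432). Kcnd3 (chr3:105452330-105674002), the other cardiac Kv4 gene, had 3.47, 3.27 and 3.62 FPKM in TAB, against 4.77, 4.72, 4.18 and 4.30 FPKM in Sham. Every TAB library lay below every Sham library, and the spread within TAB was small beside the gap (-0.30 ± 0.07, adjusted p = 0.0146). The Kcnd3 call was lost when Sham 2 and TAB 3, which had the highest level of the atrial markers in their groups, were both left out (adjusted p = 0.062), and that of Kcnd2 was kept under every alternative tried.

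Kcnip2 (chr19:45792346-45816063), the calcium-binding partner of these channels, had 67.2, 80.2 and 60.8 FPKM in TAB and 89.9, 82.9, 78.6 and 88.2 FPKM in Sham. It was the 1 called member whose groups overlapped, since TAB 2 was above Sham 3 (log2 difference -0.29 ± 0.09, adjusted p = 0.0375). That call did not hold without TAB 1, TAB 3, Sham 1, Sham 2 or Sham 4 (adjusted p from 0.0673 to 0.121), nor without a filter (0.0739) or with eBayes without trend and robust (0.064). Summed Kcnd2 and Kcnd3 averaged 7.51 ± 0.782 FPKM in TAB and 11.5 ± 0.616 in Sham. Kcnip2 was thus present at 8.34, 10.2 and 9.19 transcripts per Kv4 transcript by FPKM in TAB, against 7.84, 7.45, 7.20 and 7.16 in Sham, so that this ratio was higher in every TAB library. Kcna4, the pore gene of the slow transient outward current, was below the filter at 0.379, 0.409 and 0.572 FPKM in TAB and 0.184, 0.485, 0.260 and 0.419 in Sham, which overlapped. The Kv4 partners Dpp6 and Dpp10 were also below it, Dpp10 at 0 in every library.

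The silent subunit gene Kcnv2 (chr19:27322619-27337179) fell most of all by fold. Its product forms no channel alone and is known to join pore-forming subunits of other families. Kcnv2 had 1.25, 1.76 and 1.06 FPKM in TAB and 3.62, 3.25, 4.34 and 2.95 FPKM in Sham, with no overlap (0.383 times Sham, log2 difference -0.95 ± 0.13, adjusted p = 0.000725). At this low level the pseudocount of 1 shrinks the log2 difference, which was -1.34 with a pseudocount of 0.1. Kcnv2 rested on about 64 to 271 fragments a library and was called under each of the 18 alternatives in which it was tested (adjusted p from 0.00041 to 0.00833). A second silent subunit gene, Kcng2 (Kv6 family), was far more abundant, at 25.9 to 28.7 FPKM in TAB and 29.0 to 30.7 in Sham. Its groups did not overlap and it was not called (-0.14 ± 0.05, adjusted p = 0.0835), but it was called lower after median-of-ratios rescaling or quantile normalization (adjusted p = 0.0251 and 0.0293).

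The other voltage-gated genes were mixed. Kcna5, which carries the ultrarapid delayed rectifier of mouse and is abundant in atria, had 12.2, 11.7 and 12.9 FPKM in TAB and 11.6, 11.2, 11.0 and 10.4 in Sham. The groups did not overlap, with TAB just above, and Kcna5 was not called (0.14 ± 0.06, adjusted p = 0.126, and 0.132 with an atrial covariate). There were 2.67, 2.55 and 4.29 Kcna5 transcripts per Kcnd2 transcript in TAB and 1.73, 1.74, 1.63 and 1.3 in Sham, so the ratio was higher in every TAB library. Kcnh2 (chr5:24319589-24351604), the ERG channel of the rapid delayed rectifier, had 16.5, 18.4 and 14.1 FPKM in TAB and 21.1, 19.7, 20.3 and 19.1 in Sham. All TAB libraries lay below Sham (-0.29 ± 0.08, adjusted p = 0.0269), and the call was lost without TAB 1, TAB 3, Sham 1 or Sham 3 (adjusted p from 0.0562 to 0.0924) and without a filter (0.0603). Kcnq1, the pore of the slow delayed rectifier, had 14.2, 15.1 and 12.1 FPKM in TAB and 12.4, 13.4, 14.3 and 12.9 in Sham, which overlapped (0.05 ± 0.08, adjusted p = 0.703). The noncoding Kcnq1ot1, which lies within the span of Kcnq1, was at 0.105 to 0.119 FPKM in TAB and 0.0681 to 0.101 in Sham. How the authors' counting used strand is not given in the sources used here, so reads of these overlapping genes may not be separated. Kcna7 was low, at 3.01 to 3.29 FPKM in TAB and 3.30 to 4.24 in Sham, and was not called (-0.15 ± 0.09, adjusted p = 0.25).

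**Figure D2:**
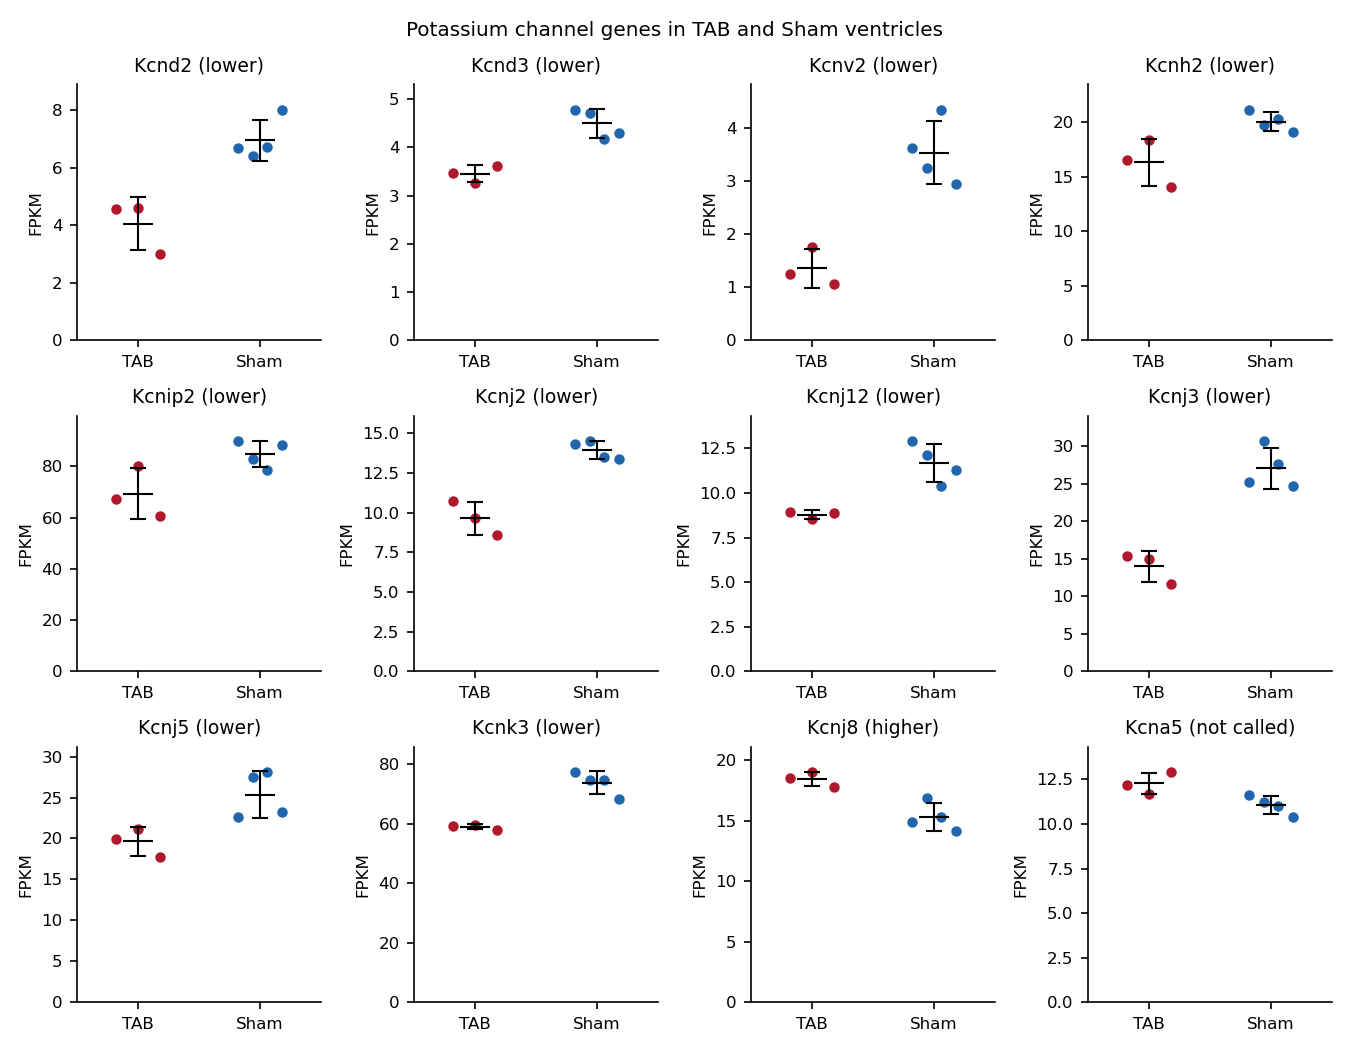
FPKM (vertical axes from 0) of the 11 called genes and of Kcna5 in 3 TAB and 4 Sham libraries, with 1 point per library, the mean as a horizontal line and SD as error bars. TAB lies below Sham without overlap in 9 genes, overlaps it in Kcnip2 and lies above it in Kcnj8 and Kcna5.

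The strong inward rectifiers that hold the resting potential of ventricular cells fell. Kcnj2 (chr11:111066164-111076825), the main gene of this current, had 10.7, 9.63 and 8.58 FPKM in TAB, against 14.3, 14.5, 13.5 and 13.4 FPKM in Sham. The highest TAB library was well below the lowest Sham library (0.692 times Sham, -0.49 ± 0.07, adjusted p = 0.00129). Kcnj12 (chr11:61022564-61073267), whose product assembles with that of Kcnj2, had 8.95, 8.51 and 8.89 FPKM in TAB and 12.9, 12.1, 10.4 and 11.3 FPKM in Sham. It too was lower in every TAB library (0.753 times Sham, -0.37 ± 0.07, adjusted p = 0.00551), and both calls were kept under every alternative tried. The number of Kcnj2 transcripts per Kcnj12 transcript was 1.10 ± 0.119 in TAB (SD, n = 3) and 1.20 ± 0.0753 in Sham (SD, n = 4), with overlap. Kcnj16, which ends 38.2 kb before Kcnj2 on the same chromosome, was below the filter. Kcnj14, a further member of the Kcnj2 family, was low and ran the other way. It had 1.37, 0.961 and 1.78 FPKM in TAB and 0.243, 0.714, 0.645 and 0.666 in Sham, and it fell just outside the filter with 2 libraries at 1 FPKM or more.

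The 2 subunits of the channel that acetylcholine opens through G proteins fell unequally. Kcnj3 (chr2:55437156-55595525), which cannot form a working channel alone, had 15.4, 15.0 and 11.6 FPKM in TAB, against 25.2, 30.7, 27.6 and 24.7 FPKM in Sham. Its libraries were far apart by group and its difference was the one with the smallest p of the 24 (0.519 times Sham, -0.91 ± 0.10, adjusted p = 0.00044). Kcnj5 (chr9:32314783-32344237), its partner, had 19.9, 21.2 and 17.8 FPKM in TAB and 22.6, 27.5, 28.1 and 23.2 FPKM in Sham. The groups did not overlap but lay close (0.774 times Sham, -0.35 ± 0.09, adjusted p = 0.0185), and the call was lost without TAB 1 or TAB 3 (adjusted p = 0.0556 and 0.0713). Kcnj3 was called under every alternative tried. There were 0.774, 0.708 and 0.655 Kcnj3 transcripts per Kcnj5 transcript in TAB and 1.11, 1.12, 0.979 and 1.07 in Sham, so Kcnj3 was the rarer of the pair in each TAB library and near parity in Sham. Both genes are known to be richer in atria. The mean log2 level of the atrial markers Sln, Myl7 and Myl4 was 4.46, 3.31 and 6.49 in TAB 1 to 3 and 4.00, 6.39, 5.31 and 3.53 in Sham 1 to 4. In TAB both genes were lowest in TAB 3, the library with the highest atrial mean. In Sham, Kcnj3 had the same rank order as the atrial mean, and Kcnj5 was highest in Sham 2 and Sham 3, where that mean was highest. The part of atrial tissue in these differences was not tested. Without both Sham 2 and TAB 3, Kcnj5 was not called (adjusted p = 0.139), and with the atrial mean as a covariate both were called (adjusted p = 0.00124 for Kcnj3 and 0.0275 for Kcnj5).

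Of 11 tested receptors, G protein subunits and RGS proteins that act on this channel, 3 were higher, 2 lower and 6 not called, with a median of 0.13; over all tested genes 13.3% were higher and 7.05% lower. Chrm2, the muscarinic receptor that opens it, had 29.2, 22.6 and 25.1 FPKM in TAB and 34.9, 35.1, 34.8 and 37.4 in Sham (-0.46 ± 0.07, adjusted p = 0.00212). Rgs6, which shortens its response, fell by 0.34 ± 0.09 (adjusted p = 0.028), a call lost without TAB 1, Sham 2 or Sham 3 (adjusted p from 0.0676 to 0.116) and without a filter (0.0626). The G protein gene Gnao1 had 15.3, 11.8 and 16.2 FPKM in TAB and 6.19, 5.72, 6.83 and 5.80 in Sham (1.10 ± 0.10, adjusted p = 0.000133). Gnai3 and Gnb1 rose by 0.24 ± 0.06 and 0.19 ± 0.05 (adjusted p = 0.018 and 0.0156), calls lost without TAB 1 (0.0774 and 0.0749). The adenosine receptor Adora1 was not called (-0.18 ± 0.08, adjusted p = 0.123).

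The ATP-sensitive channels showed the 1 rise. Each is built from Kcnj11 or Kcnj8 as the pore and a sulfonylurea receptor, Abcc8 or Abcc9. Kcnj11, the cardiomyocyte pore, had 42.9, 46.0 and 43.4 FPKM in TAB and 47.5, 52.6, 47.9 and 47.4 in Sham, which did not overlap, and it was not called (-0.14 ± 0.05, adjusted p = 0.0737). It was called lower after median-of-ratios rescaling, quantile normalization or array weights (adjusted p = 0.021, 0.0455 and 0.0489). Kcnj8 (chr6:142564939-142571356), the pore known from vascular smooth muscle and pericytes, had 18.5, 19.0 and 17.8 FPKM in TAB, against 14.9, 16.9, 15.3 and 14.1 FPKM in Sham. Every TAB library was above every Sham library (1.21 times Sham, 0.26 ± 0.07, adjusted p = 0.0184). The call was lost without TAB 1 or TAB 2 (adjusted p = 0.0621 and 0.0555). The list of 10 smooth muscle and pericyte markers held both Kcnj8 and Abcc9. Of these 10 markers 5 were higher, 1 (Abcc9) was lower and 4 were not called, and their summed FPKM overlapped between TAB and Sham. With Kcnj8 and Abcc9 left out, the remaining 8 summed to 261 to 296 FPKM in TAB and 233 to 242 in Sham. Of these 8 markers 4 were higher, 0 lower and 4 not called, with none at 0. Over all tested genes 13.3% were higher and 7.05% lower. The part of the listed markers in the rise of Kcnj8 was not tested.

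Of the receptor genes, Abcc9 fell while its neighbour Kcnj8 rose, and neither Abcc8 nor its neighbour Kcnj11 was called. Abcc9, which lies 16.5 kb from Kcnj8, had 54.8, 56.5 and 49.9 FPKM in TAB and 75.8, 74.3, 78.2 and 76.8 in Sham (-0.50 ± 0.05, adjusted p = 0.000186). It is expressed in cardiomyocytes as well as in pericytes. The number of Kcnj8 transcripts per Abcc9 transcript was 0.338, 0.336 and 0.358 in TAB and 0.197, 0.228, 0.195 and 0.183 in Sham, without overlap. Kcnj8 relative to Kcnj11 was 0.418 ± 0.0120 in TAB (SD, n = 3) and 0.313 ± 0.0112 in Sham (SD, n = 4). Abcc8, 3.76 kb from Kcnj11 on chromosome 7, was at 7.08 to 7.59 FPKM in TAB and 7.48 to 9.25 in Sham and was not called (-0.16 ± 0.08, adjusted p = 0.171).

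**Figure D3:**
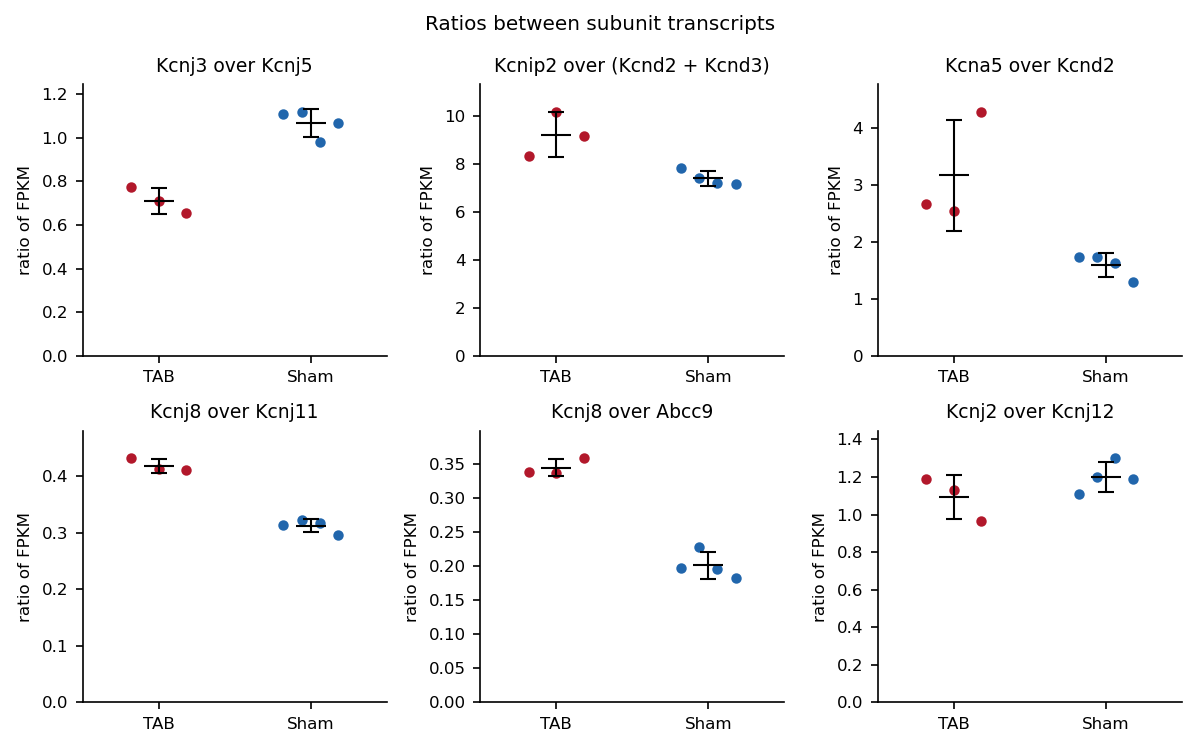
Ratios of FPKM between potassium channel subunits (vertical axes from 0) in 3 TAB and 4 Sham libraries, with 1 point per library, the mean as a horizontal line and SD as error bars. Kcnj3 over Kcnj5 is lower in each TAB library, Kcnip2 over Kv4, Kcna5 over Kcnd2 and both Kcnj8 ratios are higher, and Kcnj2 over Kcnj12 overlaps.

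Among the two-pore genes 2 of 14 passed the filter. Kcnk3 (chr5:30588170-30625270) had 59.4, 59.7 and 58.1 FPKM in TAB, against 77.4, 74.8, 74.7 and 68.3 FPKM in Sham. The 3 TAB libraries were within 2 FPKM of each other and all below Sham (0.801 times Sham, -0.31 ± 0.05, adjusted p = 0.00171), and the call was kept under every alternative tried. Kcnk6, a channel of intracellular membranes, had 1.31 to 1.71 FPKM in TAB and 1.10 to 1.84 in Sham, which overlapped (0.02 ± 0.11, adjusted p = 0.922). Kcnk2, the stretch-activated TREK channel, fell just outside the filter with 1.17, 0.962 and 1.06 FPKM in TAB and 0.789, 0.923, 0.581 and 0.816 in Sham; TAB was above Sham without overlap (0.22 ± 0.08 without a filter, adjusted p = 0.15).

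Neither tested gene of the small-conductance calcium-activated channels was called. Kcnn1 had 4.16, 4.11 and 3.55 FPKM in TAB and 3.90, 3.82, 3.97 and 4.23 in Sham (-0.01 ± 0.07, adjusted p = 0.927). Kcnn2, the SK gene best known in the heart, had 3.87, 3.67 and 3.54 in TAB and 3.34, 3.00, 3.84 and 4.18 in Sham (0.04 ± 0.09, adjusted p = 0.812), and both overlapped. Their sign turned under some alternatives, and a missed threshold does not show equal levels. Of 3 calmodulins, the calcium sensors of these channels, 2 were higher and 1 was not called, where 13.3% of all tested genes were higher. Calm2 rose by 0.20 ± 0.05 (adjusted p = 0.015), a call lost when TAB 1 was left out (adjusted p = 0.053). Calm3 was not called (-0.03 ± 0.04, adjusted p = 0.733). The large-conductance pore gene Kcnma1 was at 0.131 to 0.314 FPKM in TAB and 0.0389 to 0.0803 in Sham, below the filter. Lrrc52, a leucine-rich partner of the Slo family, had 1.42, 1.35 and 1.22 FPKM in TAB and 2.05, 2.00, 3.06 and 2.19 in Sham (-0.50 ± 0.11, adjusted p = 0.0105), and the other 3 genes of that list were below the filter.

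Of 17 auxiliary genes 4 were tested and only Kcnip2 was called. Kcne1, the partner of Kcnq1 in the slow delayed rectifier, had 1.54, 1.67 and 1.61 FPKM in TAB and 1.55, 2.02, 1.19 and 0.997 in Sham, so the Sham libraries straddled all 3 TAB libraries (0.11 ± 0.13, adjusted p = 0.602). Kcne4, known to inhibit Kcnq1 channels, and Kcnip3, a relative of Kcnip2, had 1.17 to 1.93 and 0.896 to 1.18 FPKM in TAB and 1.32 to 1.68 and 0.917 to 1.34 in Sham, with overlap (0.05 ± 0.11 and 0.01 ± 0.11, adjusted p = 0.81 and 0.946).

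**Figure D4:**
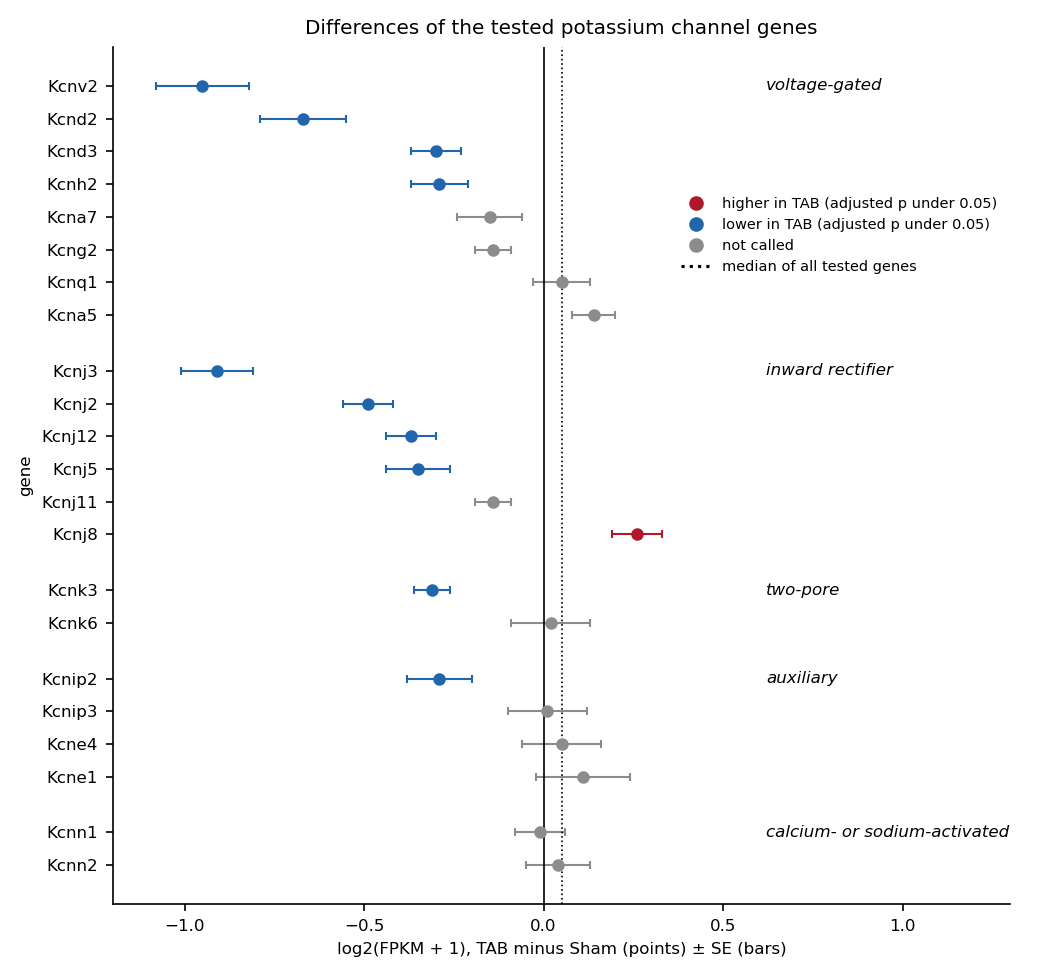
Difference of 22 of the 24 tested genes on the log2(FPKM + 1) scale, TAB minus Sham (horizontal axis, points with SE bars), by class; colour gives the call at an adjusted p under 0.05 and the dotted line the median of all tested genes, 0.05. Of the 11 called genes 10 lie left of 0, from -0.95 for Kcnv2 to -0.29, and Kcnj8 lies right of it at 0.26.

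Summed over all members of a class, above the filter or not, transcript levels were lower in TAB in 4 of 5 classes of subunits. Inward rectifier genes summed to 119, 121 and 111 FPKM in TAB and 138, 156, 144 and 135 in Sham, a ratio of means of 0.816. Voltage-gated genes summed to 95.0, 94.6 and 88.9 in TAB and 107, 106, 106 and 103 in Sham, a ratio of 0.88. In both classes, and in the two-pore class (62.4 ± 0.563 in TAB and 76.9 ± 3.72 in Sham, mostly Kcnk3), the groups did not overlap. Auxiliary genes, mostly Kcnip2, summed to 67.9 to 87.0 in TAB and 85.5 to 97.5 in Sham, with overlap. Calcium- or sodium-activated genes summed to 9.51 ± 0.771 in TAB and 9.13 ± 0.606 in Sham. The median of the tested genes was -0.36 for inward rectifiers (6 tested, 4 lower and 1 higher) and -0.22 for voltage-gated genes (10 tested, 4 lower, 0 higher). It was -0.15 for two-pore (2 tested), 0.03 for auxiliary (4 tested) and 0.01 for calcium- or sodium-activated genes (2 tested). Over all tested genes the median was 0.05, with 7.05% lower and 13.3% higher.

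**Figure D5:**
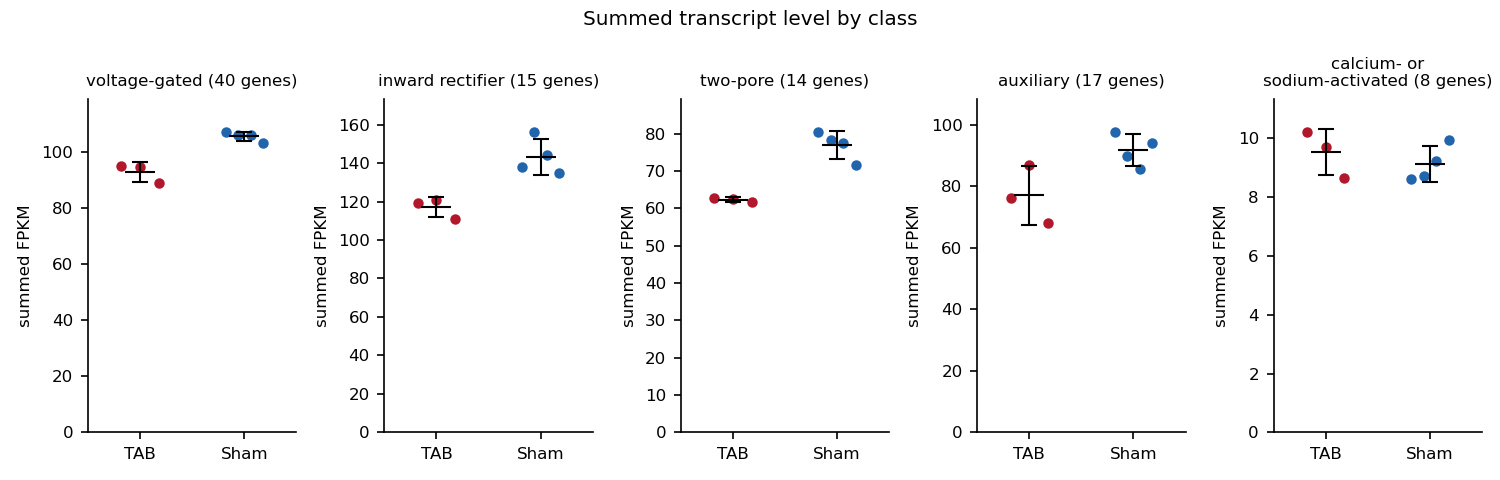
FPKM summed over all members of each class (vertical axes from 0) in 3 TAB and 4 Sham libraries, with 1 point per library, the mean as a horizontal line and SD as error bars. TAB is below Sham without overlap for voltage-gated, inward rectifier and two-pore genes, and the groups overlap for auxiliary and calcium- or sodium-activated genes.

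Of the 71 genes below the filter 12 were at 0 in every library and 55 averaged under 0.3 FPKM in both groups. The other 16 included Kcnt2, Kcnj14, Kcnk2, Kcnmb1, Kcnab1, Kcnab2, Kcna1, Kcna4, Kcnj15, Kcne3, Kcnk13, Kcna2, Kcnk1, Kcnip1 and Kcnip4. At the edge of the filter, Kcnip3 passed with 4 libraries at 1 FPKM or more, while Kcnt2, Kcnj14 and Kcnk2 had 2. In a fit without a filter 11.5% of 17988 rows were called. It took in 83 of the 95 members, the 24 tested genes among them, and 3 of the members below the filter were called. Kcnj15, an inward rectifier known from kidney, had 0.512, 0.536 and 0.532 FPKM in TAB and 0.248, 0.253, 0.250 and 0.274 in Sham (0.28 ± 0.04, adjusted p = 0.00726). Kcnj14 was higher (0.59 ± 0.15, adjusted p = 0.0396), and Kcna1, a nerve channel, was lower (-0.20 ± 0.05, adjusted p = 0.0456) with 0.312 ± 0.0469 FPKM in TAB and 0.510 ± 0.0345 in Sham. These values rest on few fragments.

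Proteins that place, move or control potassium channels were split. Over all partner lists 41 of 46 genes were tested, of which 8 were higher, 6 lower and 27 not called, with a median of 0.00 against 0.05 for all tested genes; over all tested genes 13.3% were higher and 7.05% lower. Among 8 scaffolds the actin-binding Cttn and Actn2 and the caveolar Cav3 rose by 0.33 ± 0.05, 0.25 ± 0.05 and 0.29 ± 0.06 (adjusted p = 0.0025, 0.00423 and 0.0109). Dlg1, which anchors Kv and Kir channels, and the ankyrin Ank2 fell by 0.18 ± 0.05 and 0.20 ± 0.06 (adjusted p = 0.0335 and 0.025). The Cav3 call was lost without TAB 1 (adjusted p = 0.0544), that of Dlg1 without any single library (0.0502 to 0.111) and that of Ank2 without TAB 1, TAB 3, Sham 1 or Sham 2 (0.0505 to 0.102). None of 7 genes of channel trafficking and turnover was called. None of 8 transcription factors known to act on cardiac potassium channel genes was called either, the smallest adjusted p being those of Tbx20 (0.24 ± 0.08, adjusted p = 0.057) and of Klf15 (-0.22 ± 0.08, adjusted p = 0.0676), which is known to drive Kcnip2.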

How the data were processed

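The authors deposited 1 table of FPKM values, 23847 gene rows by 7 libraries, for which the submitters' processing notes name TopHat, Cufflinks and the mm10 build. No version, annotation or scaling between libraries is given there. Columns were matched to samples by the column name in each description. Starts in the table count from 0 (12145 of 21421 genes lay 1 base below RefSeq's start, 717 at it) and are printed from 1. On the scale of log2(FPKM + 1), the 11601 rows with FPKM of at least 1 in at least 3 libraries were then fitted with limma 3.58.1 in R 4.3.3 (trend and robust eBayes, no covariate, two-sided, Benjamini-Hochberg). FPKM are not counts, so no count model was used. Depth was estimated from GENCODE M21 genes that have 1 transcript, 3000 to 6000 bp long. It was the value at which most low values (63.0% to 71.8% of 68 to 81 a library) lay within 5% of 1 to 4 whole fragments. Only a limited range of depths was searched and depths outside it were not examined, so depths and fragment counts are approximate. Fragments per gene use its longest transcript. Simulated data of 11601 genes had independent normal noise and 200 changed genes, with the fold applied to FPKM + 1. In them, 30% of genes changed 1.25-fold, 86% at 1.5-fold, 96% at 2-fold and 100% at 3-fold were recovered, with 8 false calls. In the real data 20.3% of tested genes were called, so these recovery rates may not carry over, least of all for genes at low FPKM. Named are the tested members, those below the filter with a mean of at least 0.3 FPKM in a group, and up to 4 called partner genes a list by smallest adjusted p. Kcnj16, Kcnma1, Rgs6, Dlg1 and the uncalled partners were named after their values were seen. Some genes are not reported here by name, though counts and sums include them. The members and lists were chosen with earlier results of these data known. Alternatives were pseudocounts of 0.1 and 0.5, no filter, a mean FPKM of 5, 2 rescalings, eBayes without trend and robust, array weights, a replicate block, an atrial covariate, summed duplicate symbols and left-out libraries.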

Additional observations from a re-analysis of the deposited data

Results flagged for a closer look

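Dixon's ratio set 1 Sham library apart from the other 3 in 1 of 37 values looked at, where chance gives about 1 in 20. For Kcnj11, TAB libraries had 42.9 to 46.0 FPKM, and Sham 2 had 52.6 FPKM, against 47.4 to 47.9 in the other Sham libraries. The TAB group of 3 was too small for this check.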

How the results depend on the processing

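Kcnd2, Kcnv2, Kcnj2, Kcnj12, Kcnj3 and Kcnk3 kept their direction and call under each alternative that tested them. The 10 lower calls became 6 without both Sham 2 and TAB 3, and 7 to 10 when 1 library was left out. They were 12 under either rescaling, 11 with array weights, 9 with eBayes without trend and robust, and 8 without a filter. A mean FPKM of 5 left 14 members tested, 8 of them lower. The share of all tested genes called lower, 7.05% in the main fit, was 10.3% under median of ratios and 10.6% under quantile normalization. It was 7.41% with array weights, 6.13% with eBayes without trend and robust, 3.84% without a filter and 9.66% at a mean FPKM of 5. Without both Sham 2 and TAB 3 that share was 3.4%, and with 1 library left out it ranged from 4.75% to 6.21%. The 1 higher call, Kcnj8, was 0 under the replicate block and ranged from 0 to 1 with 1 library left out. Over all genes, 395 were lower and 959 higher without both Sham 2 and TAB 3, against 818 and 1542; with 1 library left out lower calls ranged from 547 to 716 and higher calls from 860 to 1364. Rescaling moved the share of higher calls among all calls from 65.3% to 48.6% (median of ratios) and 46.0% (quantile), and the median of all tested genes from 0.05 to 0.00 and -0.01, the cause of which was not tested.

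Deviations from the group means correlated at 0.0807, 0.169 and 0.174 between same-numbered libraries. Differently numbered libraries were not compared, so these values cannot show whether the replicate numbers pair the libraries. With the number as a replicate block 11 potassium channel genes were lower and 0 higher, and over all genes 654 were lower and 1238 higher; Kcnj8, Gnai3, Gnb1, Ank2 and Dlg1 were not called (adjusted p = 0.0558, 0.0735, 0.0698, 0.0641 and 0.0886). Partner genes called lower were 3 in place of 6 without TAB 1, without Sham 2 or without both Sham 2 and TAB 3. They were 8 under median of ratios and 9 under quantile normalization. Partner genes called higher were 4 in place of 8 without TAB 1 and 10 without TAB 2. Without both Sham 2 and TAB 3 the calls of Kcnd3, Kcnh2, Kcnip2 and Kcnj5 were lost (adjusted p = 0.062, 0.131, 0.15 and 0.139), in a fit with 2 fewer libraries.

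Sign changes were limited to 6 uncalled genes. Kcne4 was -0.03 under quantile normalization and -0.05 to 0.17 with 1 library left out. Kcnip3 was -0.01 under median of ratios, -0.06 under quantile normalization, -0.02 under the block, -0.05 without both libraries and -0.02 to 0.08 with 1 left out. Kcnk6 was -0.01, -0.05 and -0.04 under the 2 rescalings and without both libraries, and -0.06 to 0.09 with 1 left out. Kcnn1 was 0.01 under the block, 0.03 without both libraries and -0.05 to 0.04 with 1 left out. Kcnn2 was -0.00071, -0.05 and -0.0013 under the 2 rescalings and without both libraries, and -0.03 to 0.10 with 1 left out. Kcnq1 was -0.01 to 0.14 with 1 library left out. Depth limits the genes near 1 FPKM, such as Kcnip3 with about 28 to 40 fragments a library.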
